A study of Mus musculus with 39 samples.

Results

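In 7438 mouse mammary cells, far more estrogen receptor (ER) binding sites were listed with estradiol than in the list named untreated. The lists compared held 7136 called ER sites with estradiol (E2) and 373 without hormone, together 7509 of the 110608 sites in the 24 deposited lists used here. They were chosen by cell line, antibody and the treatment in the name of the list: parental 7438 cells, ER ChIP-seq, E2 against untreated. The name and the sample label of the short list disagree. Its name says untreated, and it was filed under a sample labelled as treated with dexamethasone plus estradiol (Dex+E2). The same conflict, in mirror image, affects the list named Dex+E2, which was filed under the untreated label. The name was followed, and "untreated" in the text means the list so named. Values with the labels followed instead are given at the end.

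7438 cells carry genes for a GFP fusion of the glucocorticoid receptor (GR) and a Cherry fusion of ER, both under a tetracycline-regulated promoter, and both groups were cultured without tetracycline before the experiment so that the fusions were made. All cells were kept in serum stripped with charcoal and dextran. E2 was given at 100 nM for 30 min, and the untreated cells received no hormone. Chromatin was sonicated and precipitated with a mixture of antibodies against ER. The receptor mapped was thus driven by an introduced promoter, and whether these cells also hold an ER of their own is not stated. Each group has 2 replicate samples in the labels, but 1 list, filed under a replicate 1, was used here for each, so no difference between the groups could be tested over replicates. Sites are not replicates. The 95% intervals below are exact (Clopper-Pearson) binomial intervals and cover counting error only. Read totals are not in the lists, so the sequencing depth is unknown.

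ER is a nuclear receptor that binds DNA after it takes up estrogen. It recognises estrogen response elements, which are inverted repeats, directly, and it can also be held on chromatin by other factors such as AP-1. In mammary tissue it drives growth and differentiation in response to the ovarian hormone. GR is its relative for glucocorticoids and binds different response elements, often in chromatin that is already open. Dexamethasone (Dex) is a synthetic GR ligand.

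The E2 list was 19.1 times as long as the untreated list (95% interval 17.2 to 21.3). The gap widened with the strength of the sites. Of the E2 sites, 2821 reached a highest tag density (maxD, the peak height that the authors gave each site) of at least 20, against 31 untreated sites, a ratio of 91.0 (64.0 to 134). At a maxD of at least 50 there were 598 E2 sites and 3 untreated sites. At 100 or more there were 116 against 1. Cut by the z-score, the other measure the authors gave each site, 6745 E2 sites and 200 untreated sites reached at least 30, a ratio of 33.7 (29.3 to 39.0). In 7438 cells that also express Afos, a dominant-negative inhibitor of AP-1, the names and labels do not conflict, but the lists carry other columns. There, the E2 lists held 6046 and 4687 ER sites and the untreated lists 35 and 49. Those ratios were 173 and 95.7.

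**Figure D1:**
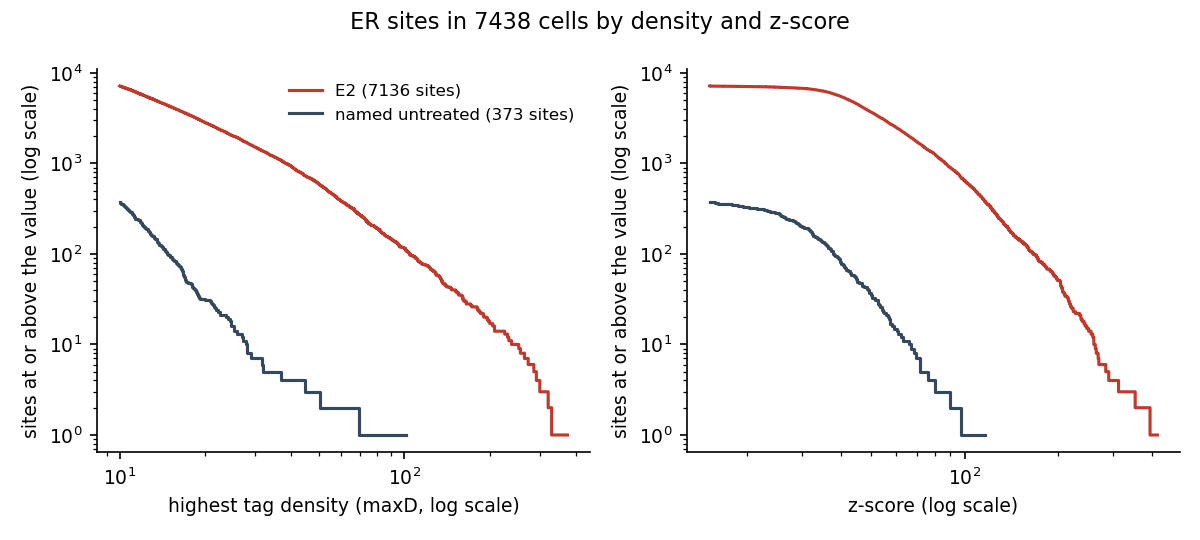
Number of ER sites at or above a given maxD (left) or z-score (right) in the E2 list and in the list named untreated, with logarithmic axes. The 2 curves start at 7136 and 373 sites and lie further apart at higher maxD, where 2821 and 31 sites reach 20.

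The sites that were listed without hormone stood mostly near the lower limit of the list. Both lists begin at a maxD of 10.0. The untreated sites had a median maxD of 12.5, with a middle range (25th to 75th percentile) of 11.1 to 15.1 and a highest value of 102. The E2 sites had a median of 17.1, a middle range of 12.7 to 27.0 and a highest value of 374. A maxD under 12 was found at 42.4% of untreated and 19.5% of E2 sites. The median z-score was 31.7 in the untreated list and 50.9 in the E2 list. The scaling of maxD is not given in the sources used here, and the levels are printed as deposited.

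At the same tag density an untreated site had the lower z-score. For sites with a maxD from 10 to 12 the median z-score was 26.5 over 158 untreated sites and 36.9 over 1394 E2 sites. From 15 to 20 it was 37.8 over 65 untreated and 51.3 over 1450 E2 sites. From 20 to 30 it was 54.7 over 24 untreated and 64.4 over 1313 E2 sites. Height and z-score ranked the E2 sites nearly alike (Spearman's rho 0.89 over 7136 sites) and the untreated sites less so (0.55 over 373), a description across sites that share a library. The list of ER sites with Dex alone, a treatment without ER ligand, had still lower medians in these ranges, 26.2, 35.0 and 43.8, near the untreated list in the lowest range and further below it in the highest. The numbering of sites ran to 10695 in the E2 list and 678 in the untreated list, of which 66.7% and 55.0% were listed. What the numbers without a listed site stand for is not given in the sources used here.

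About as many untreated sites were called again with E2 as were not. Of the 373 untreated sites, 182 overlapped an E2 site by at least 1 bp (48.8%, interval 43.6 to 54.0%), and 191 did not. Of the 7136 E2 sites, 181 overlapped an untreated site (2.54%, 2.18 to 2.93%), and 6955 did not. An untreated site was found with E2 more often the stronger it was. In 4 classes of equal size by maxD, from weak to strong, the share was 30.9%, 44.1%, 58.1% and 62.4%, and the intervals of the weakest class (21.7 to 41.2%) and the strongest (51.7 to 72.2%) did not overlap.

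In the other direction the strength of an E2 site made no comparable difference. Over 10 classes by maxD the share of E2 sites found in the untreated list lay between 1.82% and 3.23%, and the intervals of all 10 classes overlapped. It was 1.82% (0.973 to 3.09%) in the weakest class and 2.94% (1.83 to 4.46%) in the strongest, where maxD ran from 45.4 to 374. Of the 373 E2 sites of highest maxD, as many as the untreated list holds, 14 overlapped an untreated site. The strongest sites with hormone were therefore rarely listed without it.

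The leading E2 sites that were absent from the untreated list are printed with their values because they are the clearest cases of binding listed only with ligand. Coordinates are in mouse build mm9, copied as deposited, and their first base may be 0 or 1. The highest was on chromosome 11 (79592192 to 79592342), with a maxD of 374. The next were on chromosome 12 (16797346 to 16797496; maxD 329) and chromosome 17 (34347547 to 34347697; maxD 320). Chromosome 6 held both remaining sites, at 66485018 to 66485168 (maxD 299) and 147073654 to 147073804 (maxD 291). Each of the 5 was also listed with E2 in both replicates of the Afos cells, at values from 110 to 532, and none in an untreated Afos list or in an ER list with Dex alone. All 5 were in the GR list of 7438 cells with E2, at a maxD from 21.0 to 75.5, in which only 326 sites were called. That list held 2.79% of all E2 sites, 24.7% of the 373 strongest and 14.5% of the untreated sites.

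The 5 sites of highest E2 density that were also listed without hormone are given as examples; the E2 density enters both their choice and the difference. A site on chromosome 16 (10754733 to 10754883) had a maxD of 173 with E2 and 21.5 without. One on chromosome 6 (31030843 to 31030993) had 129 and 11.1, the largest ratio of all shared sites (11.6). One on chromosome 12 (16857719 to 16857869) had 125 and 23.96. A pair of further sites on chromosome 6 (135269565 to 135269715 and 120906426 to 120906576), had 91.5 and 90.3 with E2 against 16.04 and 11.8. By ratio, the 5 leading shared sites were 3 of these and sites on chromosome 17 (75509938 to 75510088), with 86.4 and 12.8, and chromosome 15 (25507498 to 25507648), with 67.7 and 10.1. The z-score of the chromosome 17 site was 34.8 with E2 and 34.4 without, and the ER list named Dex+E2 did not hold it. The chromosome 12 site was listed in 16 of the 24 lists, and the other 4 of highest E2 density in 11 to 14.

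At most of the shared sites the density was higher with E2, by a modest amount, a direction that the choice of shared sites favours. The median ratio of E2 over untreated maxD was 1.29 (interval of the median 1.16 to 1.46) over the 182 untreated sites, with a middle range of 0.97 to 2.11. E2 was higher at 129 sites (70.9%) and untreated at 53. The ratio was at least 2-fold in favour of E2 at 49 sites (26.9%) and at least 2-fold in favour of untreated at 8 (4.4%). When each maxD was divided by the median of its own list, the median ratio was 0.94, so the direction depends on taking the densities as deposited. Leaving out sites absent with E2 also favours a higher density with E2. Both lists have a lower limit of maxD, so a weak untreated site that was much lower with E2 would not be listed there. In the 91 pairs of lower untreated maxD (10.1 to 13.2) the median ratio as deposited was 1.46, and E2 was higher at 74. In the 91 of higher untreated maxD (13.3 to 69.3) it was 1.16, and E2 was higher at 55. The untreated density enters both this split and the ratio. Among the 182 pairs, the height of a site without hormone said little about its height with E2 (Spearman's rho 0.08). The untreated maxD of these pairs had a narrow middle range, 11.4 to 16.2, and sites absent with E2 are left out. Whether an untreated site was listed with E2 did vary with its height, as given above. The 2 calls of a pair lay close together, with a median offset of 23.5 bp and 104 of 182 within 30 bp, for sites 150 bp wide.

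**Figure D2:**
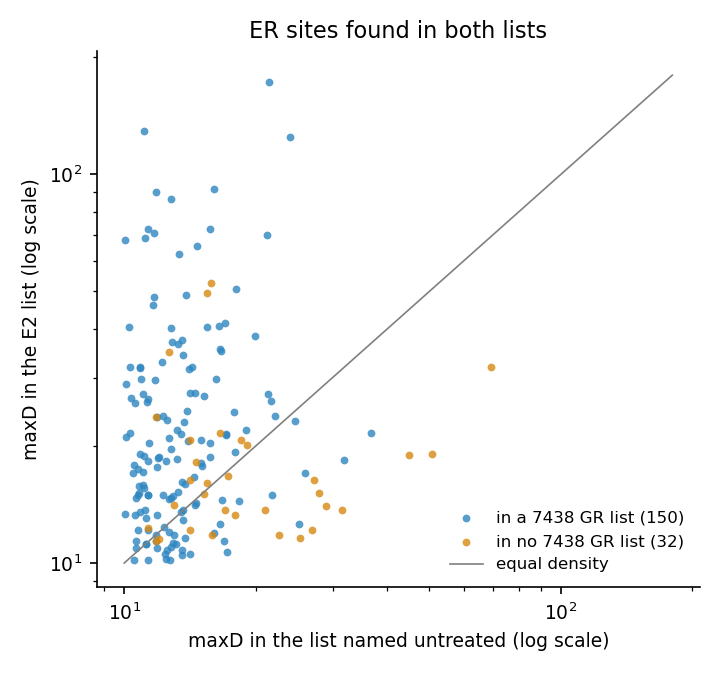
Highest tag density of the 182 untreated sites that overlap an E2 site, in the untreated list (horizontal) and in the E2 list (vertical), on logarithmic axes, with colours for presence in a GR list of the same cells. Most points lie above the line of equal density, and the points in no GR list include most of those far below it.

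The 5 shared sites of lowest ratio were all strong sites of the untreated list. The lowest ratio, 0.38, was at a site on chromosome 4 (131826026 to 131826176), with a maxD of 50.6 untreated and 19.1 with E2. A site on chromosome 11 (87240202 to 87240352) had 44.9 and 18.9. A site on chromosome 3 (96073774 to 96073924) had 31.6 and 13.7. These 3 were listed with Dex alone as well, at 73.8, 26.9 and 28.5, and in no GR list of 7438 cells. The remaining pair, on chromosome 11 (86624200 to 86624350) and chromosome 13 (21871441 to 21871591), had 26.9 and 25.3 untreated against 12.1 and 11.6. Of the 31 untreated sites with a maxD of at least 20, 23 were in the E2 list, 6 of them higher with E2 and 17 higher untreated. The untreated density enters both the choice of these sites and the ratio.

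The strongest untreated site of all had no counterpart with E2. It lay on chromosome 7 (148378347 to 148378497), with a maxD of 102 and a z-score of 80.5, and was otherwise listed only in the ER list named Dex+E2 (maxD 171). The next 4 sites that were absent with E2 had a maxD from 24.4 to 28.0. The sites on chromosome 5 (121062716 to 121062866) and chromosome 13 (23831347 to 23831497) were in no other list. Those on chromosome 10 (80645506 to 80645656) and chromosome 8 (32260313 to 32260463) were in 1 other, the ER list named Dex+E2.

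A larger share of the untreated ER sites than of the E2 sites lay at GR sites found with Dex alone. The GR list of 7438 cells with Dex alone, whose name and label do not conflict, held 59.8% of all 373 untreated ER sites and 16.7% of the 7136 E2 sites. It held 78.6% (143) of the untreated sites shared with E2, 41.9% (80) of the untreated sites absent with E2, and 15.03% of the E2 sites absent without hormone. Seen from the E2 list, 12.1% (10.3 to 14.1%) of the 1189 E2 sites in the GR Dex list were also untreated ER sites, against 0.622% (0.438 to 0.857%) of the 5947 others. These 2 groups of E2 sites had a like median maxD, 18.1 and 17.0. The weakest of the 4 classes of untreated sites was in the GR Dex list at 69.1%, and the strongest at 40.9%. The share of E2 sites in the GR Dex list was 14.01% to 17.9% in 9 of 10 classes and 23.0% in the strongest. For GR sites of any list the direction depended on which E2 sites were taken. At least 1 of the 4 GR lists of 7438 cells held 62.5% of the untreated sites and 33.6% of all E2 sites. It was 90.9% for the 373 strongest E2 sites, most of them through the GR list named Dex+E2 (90.6%, against 56.8% of untreated sites). The GR lists named Dex+E2 and untreated carry the same exchange of labels as the ER lists, and their names were followed.

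Untreated sites inside and outside the GR lists differed in height and in their recurrence with E2; this split was made after the values were seen. In any of the 4 GR lists of 7438 cells were 233 of the 373 sites, with a median maxD of 12.1. Of these, 64.4% (57.9 to 70.5%) were called with E2, and E2 was higher at 116 of 150, with a median ratio of 1.40. In no GR list were 140 sites, with a median maxD of 13.7. Of these, 22.9% (16.2 to 30.7%) were called with E2, and E2 was higher at 13 of 32, with a median ratio of 0.96. Of the 31 untreated sites with a maxD of at least 20, 18 were in no GR list.

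Most E2 sites recurred in ER lists of Afos cells made with E2, and 5 untreated sites in those made without hormone. These shares are bounded by the lengths of the Afos lists, 6046 and 4687 sites with E2 against 35 and 49 untreated. Of the 7136 E2 sites, 60.5% (59.3 to 61.6%) were in at least 1 of the 2 Afos E2 lists and 48.9% in both. The share climbed with strength, from 35.0% in the weakest of 10 classes to 97.2% in the strongest. At the E2 sites found there, the maxD values correlated with a Spearman's rho of 0.61 (4134 sites) and 0.66 (3672 sites) in the Afos replicates, across sites that share a library. Of the 373 untreated sites, 5 (1.34%) were in an Afos untreated list, and all 5 in replicate 2. An Afos E2 list held 49 of the untreated sites (13.1%): 40 of the 182 that were shared with E2 and 9 of the 191 that were not.

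ER calls with Dex alone separated the classes in another way. The Dex list held 10149 sites, of which 51.5% reached a z-score of at least 30, against 94.5% of E2 and 53.6% of untreated sites. In the Afos replicates the ER lists with Dex alone held 61 and 41 sites, and the cause of this difference was not tested. The Dex list of 7438 cells held 1.26% of the E2 sites and 15.01% (56) of the untreated sites. The share was alike for untreated sites shared with E2 (15.4%) and absent with E2 (14.7%), and it went from 7.45% in the weakest of 4 classes of untreated sites to 25.8% in the strongest. Over the 22 other lists, an untreated site absent with E2 was found in a median of 1, and 80 of the 191 (41.9%) in none. An untreated site shared with E2 was found in a median of 6, an E2 site absent without hormone in a median of 4, and one of the 373 strongest E2 sites in a median of 9.

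**Figure D3:**
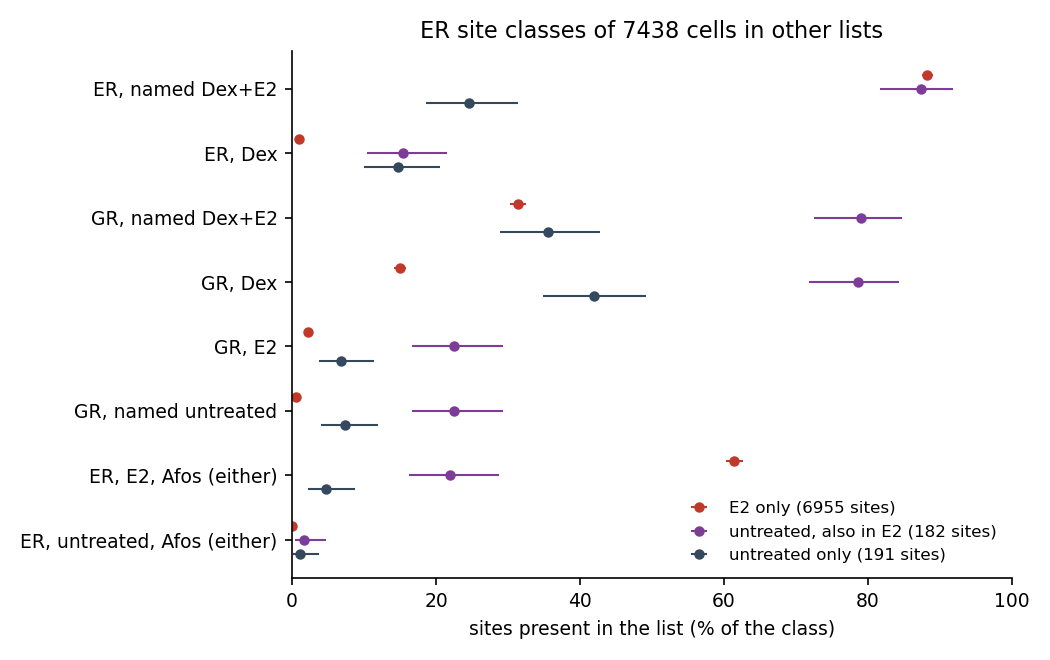
Share of 3 classes of ER site in 7438 cells that is present in other deposited lists, with exact 95% binomial intervals. E2-only sites were found in an Afos E2 list at 61.5%, against 21.98% of untreated sites shared with E2 and 4.71% of untreated-only sites, while the GR Dex list held 15.03%, 78.6% and 41.9%.

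Sites of both lists were spread over all 19 autosomes and the X chromosome, with differences at a few of them. Chromosome 11 held the most sites in both lists, 9.53% of E2 and 13.1% (9.88 to 17.0%) of untreated sites. Chromosome 3 held 4.39% and 8.31% (5.72 to 11.6%), and chromosome 13 held 3.43% and 5.90% (3.73 to 8.79%). On these 3 the E2 share lay below the interval of the untreated share, and on chromosome 10 (4.54% against 2.41%, 1.11 to 4.53%) just above it. The E2 share lay within the interval on the other 16. No allowance was made for comparing 20 chromosomes. The intervals also take sites as independent, though 36 untreated sites lay within 500 bp of another. Single regions held part of the untreated sites of chromosomes 3, 11 and 13. On each, the 1 Mb window with most untreated sites was picked after the values were seen. Leaving it out must lower the untreated share, so the direction of the change says nothing, and the shares are given as a description. Without the window from 23 to 24 Mb, which held 10 of the 22 untreated sites of chromosome 13, its shares were 3.42% (E2) and 3.31% (untreated, 1.72 to 5.70%). Without the window of most untreated sites on chromosome 3 (96 to 97 Mb) the shares were 4.29% and 6.30% (4.04 to 9.31%), and without that on chromosome 11 (87 to 88 Mb) 9.33% and 11.5% (8.40 to 15.2%), so that the E2 share lay within the interval on each. The X chromosome held 36 E2 sites and 1 untreated site. The number of E2 sites for each untreated site ran from 10.1 on chromosome 3 to 48.2 on chromosome 14, where 4 untreated sites were listed. The summed difference of chromosome shares between the lists, halved so that 0 means equal and 100 no chromosome in common, was 13.4 percentage points. It was 10.3 between the 373 strongest E2 sites and all E2 sites, and 1.47 between the Afos E2 replicates, which are longer lists.

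**Figure D4:**
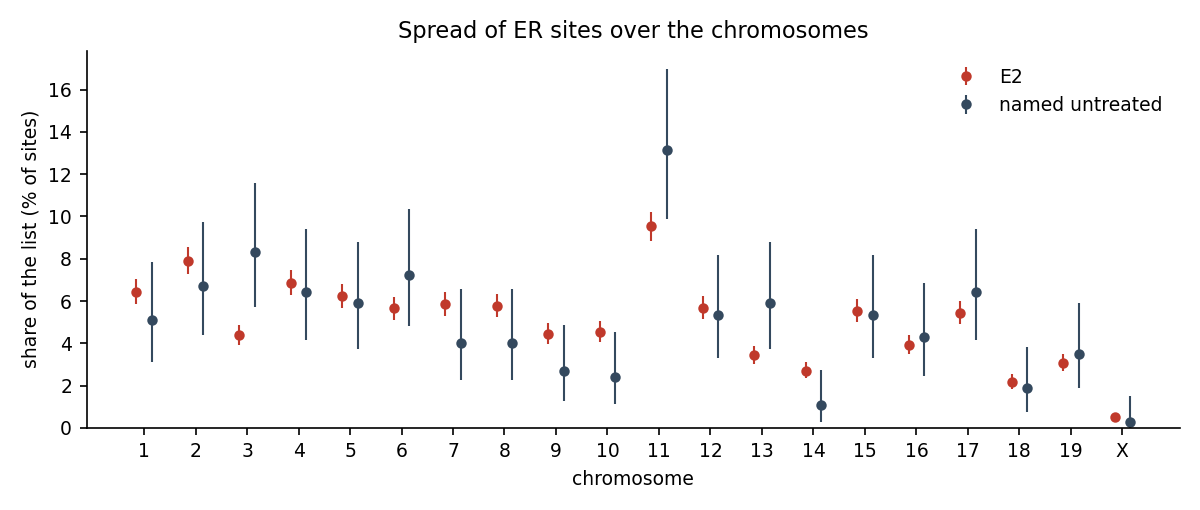
Share of the sites of each list on each chromosome, with exact 95% binomial intervals. The untreated share is above the E2 share on chromosomes 3, 11 and 13, and its intervals are wide because the list holds 373 sites.

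Recurrence of untreated sites with E2 is given for single chromosomes as a description, against 182 of 373 in all. The counts are small, and a difference between chromosomes was not tested. On chromosome 12, 14 of 20 untreated sites were in the E2 list, and on chromosome 3, 20 of 31. On chromosome 13 it was 4 of 22, and 4 of 12 without the window from 23 to 24 Mb. Chromosome 11, with the most sites, had 27 of 49.

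The E2 sites lay closer together, as a longer list must, and the untreated list held more very close neighbours than an E2 list of equal length. The median distance from a site to the nearest of its own list was 17.8 kb (16.4 to 19.1 kb) with E2 and 434 kb (298 to 590 kb) untreated. For the 373 strongest E2 sites it was 441 kb (352 to 577 kb), and this interval overlaps the untreated one. The short distances differed at equal number. Within 500 bp of another site were 36 untreated sites (9.68%) and 8 of the 373 strongest E2 sites (2.14%), against 5.07% of all E2 sites. Within 10 kb these shares were 22.8%, 13.1% and 41.1%. With untreated sites within 500 bp merged, 15.3% had a neighbour within 10 kb. The 373 strongest E2 sites were not merged, and their choice by maxD leaves out weaker E2 sites near them.

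**Figure D5:**
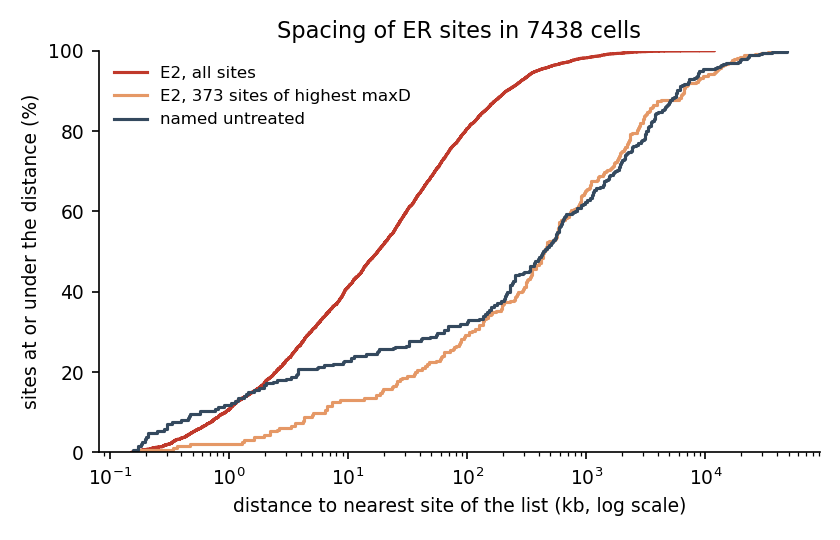
Cumulative share of sites by the distance to the nearest site of the same list, on a logarithmic axis. The untreated list and the 373 strongest E2 sites meet above 100 kb, while the untreated list has more neighbours within 10 kb (22.8% against 13.1%). With untreated sites within 500 bp merged, which is not drawn, the untreated share is 15.3%.

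Runs of 3 or more sites with gaps of at most 10 kb held 1208 E2 sites (16.9%, in 333 runs) and 21 untreated sites (5.63%, in 6 runs). The largest untreated run was on chromosome 3 (96066695 to 96077821), with 5 sites at a maxD from 12.01 to 31.6, of which 1 overlapped an E2 site. The run on chromosome 2 (117939093 to 117948393) had 4 untreated sites and no E2 site within it. The largest E2 run, on chromosome 7 (71218352 to 71235619), had 13 sites at a maxD from 11.2 to 28.2 and no untreated site. Distances between the lists depend on their lengths and are given as a description. For untreated sites that were absent with E2, the nearest E2 site was at a median of 36.6 kb, with 22 of 191 within 1 kb and 58 within 10 kb. For E2 sites without an untreated counterpart the nearest untreated site was at a median of 1636 kb, and for those among the 373 strongest E2 sites at 1316 kb.

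With the sample labels followed in place of the list names, the comparison changes direction. The untreated ER list would then be the one of 11982 sites, and E2 would have 0.596 times as many (0.578 to 0.613). Its median maxD was 18.4 against 17.1 with E2. It held 88.3% of the E2 sites, and 52.6% of its sites overlapped an E2 site, with a median ratio of E2 over untreated maxD of 0.78. The median distance between its sites was 11.2 kb. Of the Afos ER sites with E2, the 11982-site list held 73.3% and 80.8% in the 2 replicates, the 373-site list 0.629% and 0.960%, and the E2 list of 7438 cells 66.1% and 75.6%. Of the 35 and 49 untreated Afos ER sites, 0 and 4 were found in each of the 3 lists.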

How the data were processed

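ER ChIP-seq lists of called sites from 7438 cells were used, 1 for E2 and 1 named untreated. The other 22 of the 24 lists gave presence and, where stated, site counts and site values. Some Afos lists hold a tag density under 10.0, where the lists compared begin, such as 8.40 in an ER list with Dex. Counts and values of Afos and 7438 lists therefore need not share a lower limit. The remaining 15 of the 39 samples were not analysed here. Per the submitters' processing notes, CASAVA 1.8 and mouse build mm9 were used. Which program called the sites, against which control and at which threshold, is not given in the sources used here. Per the file headers, each deposited site carries a highest (maxD) and average tag density, a signal value whose scaling is not stated, and a z-score, a score set by the authors. In the Afos lists there is, per the file headers, a p-value column that stayed unused. All sites of the 7438 lists are 150 bp wide. Each list is filed under 1 sample; whether samples were pooled for it is not given in the sources used here.

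Overlap meant at least 1 bp; the untreated site was paired with the E2 site it overlapped most. Distances run between site centres. The Spearman values carry no test. The sites named are the 5 of highest maxD in each class and the 5 shared sites of highest and lowest ratio. The members, classes and rules were chosen with earlier results of these data known. Alternatives were other overlap rules, thresholds, list lengths and the label reading, and 7 alternatives were added after seeing the data. Overlap and spacing code was tested on simulated data. Genes and sequences were left out, because the gene table at hand is of another build. Python 3.11.15, NumPy 2.4.6, SciPy 1.17.1, pandas 2.3.3 and matplotlib 3.10.9 were used.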

Additional observations from a re-analysis of the deposited data

How the results depend on the processing

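No paired analysis was possible because each group of 7438 cells had 1 list and no result comes from a test. The ratio of site numbers was above 1 under every alternative except the label reading (0.596). It was 91.0 at a maxD of at least 20 and 33.7 at a z-score of at least 30. Added after the data were examined were 21.8 without chromosomes 3, 11 and 13, and 22.2 without sites in the GR list named untreated. The sample label of that GR list says Dex+E2. The share of untreated sites found with E2 was 41.3% at 75 bp of overlap, 54.7% with centres within 1 kb, 33.7% with both lists cut at their median maxD (63 of 187), 29.0% with both cut at a maxD of 20 (9 of 31) and 3.75% against the E2 list of equal number. For E2 sites found untreated these were 2.16%, 3.20%, 1.76%, 0.319% and 3.75%, and 88.3% in the label reading. The difference of medians was 4.55 in maxD, 19.3 in z-score, 68.5 at equal number and -1.30 in the label reading. The ratio at shared sites was 1.48 in z-score, 0.94 over list medians and 0.78 in the label reading. The ratio of median spacings, untreated over E2, was 24.4, and 0.985 at equal number and 0.628 in the label reading. The chromosome difference was 31.1 at a maxD of at least 20, where 31 untreated sites remain, and 2.21 in the label reading. E2 sites in Afos E2 lists made up 48.9% in both lists and 51.5% to 57.9% without either replicate; untreated sites in Afos untreated lists made up 0% in both and 0% to 1.34% without either replicate. The untreated share on chromosome 13 was 3.31% without its window of most untreated sites, also added after the data were examined. In the other 13 of 45 alternatives the value stayed within the counting interval. The cause of the changes was not tested. Single lists and unknown depth limit every comparison.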

Other observations

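A few regions held several untreated sites each, though most untreated sites lay elsewhere. The regions were picked by their untreated sites after the values were seen, which by itself favours a higher untreated than E2 share there. The number of E2 sites in them varied. Of the 256 windows of 1 Mb with an untreated site, 5 held at least 5, together 36 of the 373 untreated sites (9.65%) and 49 of the 7136 E2 sites (0.687%). The window from 23 to 24 Mb of chromosome 13 held 10 untreated sites, none of them in the E2 list, and 1 E2 site. The window from 96 to 97 Mb of chromosome 3 held 8 untreated and 7 E2 sites, and 2 of the 8 were shared. On chromosome 11, from 87 to 88 Mb, all 7 untreated sites were shared and 16 E2 sites were listed. On chromosome 19, from 5 to 6 Mb, 1 of 6 untreated sites was shared and 15 E2 sites were listed. On chromosome 4, from 32 to 33 Mb, 2 of 5 untreated sites were shared and 10 E2 sites were listed.

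The 4 windows with most E2 sites held no untreated site, but neither did most windows with an E2 site. An E2 site was in 1396 windows and an untreated site in 256. The window from 167 to 168 Mb of chromosome 2 held 44 E2 sites, 79 to 80 Mb of chromosome 10 held 34, 117 to 118 Mb of chromosome 11 held 33 and 78 to 79 Mb of chromosome 15 held 31. The next window, from 125 to 126 Mb of chromosome 5, held 30 E2 sites and 2 untreated sites.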
